A study of Mus musculus with 11 samples.

Results

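The radial spoke genes described here are Rsph1, Rsph3a, Rsph4a, Rsph6a, Rsph9, Rsph14, Nme5, Dnajb13, Lrrc23 and Ropn1l. They are the rows of the count table whose Ensembl identifier carries one of these symbols in the GENCODE annotation M21. The rule is a list of names without a threshold on any value, but the list was drawn up with earlier results of these data known. Each symbol matched 1 row, so the 10 members are 10 of the 23074 genes in the table. All 10 members passed the filter on low counts, which left 15745 genes for testing, but Rsph4a passed it through its WT libraries only. RNA-Seq had been done on decapsulated whole testis of 11 mice at postnatal day 21, of which 5 were wild type (WT) and 6 were Rfx2-/-. The Rfx2-/- mice lacked exon 7 of Rfx2 on both alleles, a germline deletion left by Cre recombination between loxP sites and therefore carried by every cell of the animal. Both genotypes shared the mixed background C57BL/6, 129/Sv and FVB/N, and the labels name no other allele and no treatment. By the methods of the study, the Rfx2-/- line of mixed background kept the neomycin selection cassette of the targeting vector. In these RNA data the deletion and the cassette cannot be told apart. The study also bred a C57BL/6 line without the cassette and states that testis morphology appeared the same in both lines. The labels do not name the cassette. RFX2 is a transcription factor that binds X-box motifs in the promoters of many cilia genes, and the comparison asks how the RNA of spoke proteins differs when it is missing in the first wave of spermatogenesis.

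Radial spokes are T-shaped complexes that stand on the outer doublet microtubules of motile cilia and sperm flagella and point toward the central pair. They pass mechanical and chemical signals from the central pair to the dynein arms and so set the beat. Each spoke has a stalk anchored on the doublet, a neck, and a head that touches the central apparatus, and head proteins differ between sperm and the multiciliated cells of airway and oviduct. In the testis the RNAs for flagellar parts build up in pachytene spermatocytes and round spermatids.

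Total counts lay between 26925157 and 29769483 per WT mouse and between 22232097 and 27116903 per Rfx2-/- mouse. Levels are given as counts per 1000000 counts (CPM) of the library size after scaling by the trimmed mean of M-values, with scaling factors from 0.894 to 1.18, and the floor of 3 counts in a library equals 0.0852 to 0.139 CPM. The germ line markers Ddx4 and Dazl, which define the labelled tissue, summed to 1184 to 1565 CPM in WT and 1468 to 1517 CPM in Rfx2-/- mice. Rfx2 itself was counted at 326 ± 118 CPM (SD, n = 5) in WT and 304 ± 14.6 CPM (SD, n = 6) in Rfx2-/- mice (log2 fold change -0.10, edgeR adjusted p = 0.714). A count over all exons of a gene does not check the deletion of 1 of them. A gene is called lower or higher below when edgeR's quasi-likelihood test, adjusted after Benjamini and Hochberg, gave p no larger than 0.01 and the fold change exceeded 2. By that rule 163 genes were lower in Rfx2-/- mice, 1.04% of those tested, and 34 were higher, 0.216%.

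Promoter sequence is shown first, for the members on which the comparison turns, because RFX proteins bind a pair of facing motif arms. RefSeq promoter windows of GRCm38.p6, from 250 bases before to 50 bases after the start, were found for 7 of the 10 members and not for Nme5, Rsph1 and Rsph4a. A window was scanned for the arm GTTGCC followed after 0 to 3 bases by its reverse complement GGCAAC, and the best match was scored over the 12 letters. As the arms are reverse complements of each other, 1 scan covers both strands, and the first of several equal matches was kept. A full pair of the looser form GTTNCC with GGNAAC was found in none of the 7 windows and in 0.804% of all 32851 windows. This form requires a T after GT, so a pair with another letter there is not counted. In Lrrc23 the arms GTAACC and GGCAAC missed the form only by the A at that place. Whether the 7 windows hold other forms that RFX proteins bind was not tested. The best match reached 10 of 12 letters for Lrrc23, Dnajb13 and Ropn1l, a level that 6.37% of all windows reach. For Rsph9 and Rsph14 it reached 9 letters, as in 36.2% of all windows, and for Rsph3a and Rsph6a 8 letters, as in 91.6%. The stretches below run 5′ to 3′ on the strand of the gene, and the capitals mark the matched arms.
Lrrc23, chr6:124779851-124779920, minus strand: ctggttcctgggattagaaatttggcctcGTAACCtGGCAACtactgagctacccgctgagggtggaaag
Dnajb13, chr7:100514816-100514885, minus strand: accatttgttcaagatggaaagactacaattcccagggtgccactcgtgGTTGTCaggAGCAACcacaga
Ropn1l, chr15:31453690-31453759, minus strand: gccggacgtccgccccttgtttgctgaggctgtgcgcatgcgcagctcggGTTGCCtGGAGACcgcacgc
Rsph9, chr17:46144253-46144322, minus strand: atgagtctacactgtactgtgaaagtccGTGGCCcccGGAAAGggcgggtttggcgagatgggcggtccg
Rsph14, chr10:75032587-75032656, minus strand: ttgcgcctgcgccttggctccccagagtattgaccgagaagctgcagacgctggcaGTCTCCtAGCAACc
Rsph6a, chr7:19054453-19054522, plus strand: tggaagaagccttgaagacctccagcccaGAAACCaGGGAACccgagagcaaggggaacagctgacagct

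The matched site began 164 bases before the start in Lrrc23, 21 bases in Dnajb13, 20 bases in Ropn1l, 94 bases in Rsph9, 14 bases in Rsph14 and 205 bases in Rsph6a. For Rsph14 there was a further window with another start, 47 bases after the same site. These matches describe letters only. The score weighs all 12 letters alike, and Ropn1l and Lrrc23 both reached 10 by it. Whether equal scores mean equal binding was not tested. Of the 9 further spoke genes described below, 8 had a window. The best match among them was 11 letters, in Rsph3b and Ppil6.

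Of the 10 members, 3 were called lower in Rfx2-/- testis, beside 1.04% of all tested genes. None was higher, beside 0.216%, and 7 were not called. The called members were Lrrc23, Rsph9 and Rsph4a, all genes of spoke heads, while the head genes Rsph1 and Rsph6a were not called. Rsph4a had to differ to enter the test, since it passed the count filter through its WT libraries only, and its call is given here as a description. Of the other 9 members 2 fell, Lrrc23 and Rsph9, and in both of them every Rfx2-/- mouse lay below every WT mouse, a separation that 5.2% of all tested genes show. The median log2 fold change of these 9 members was -0.15, with 5 below 0 and 4 above, beside a median of -0.05 over all tested genes. With Rsph4a it was -0.63. In whole testis, fewer cells of a type and less RNA per cell cannot be told apart.

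**Figure D1:**
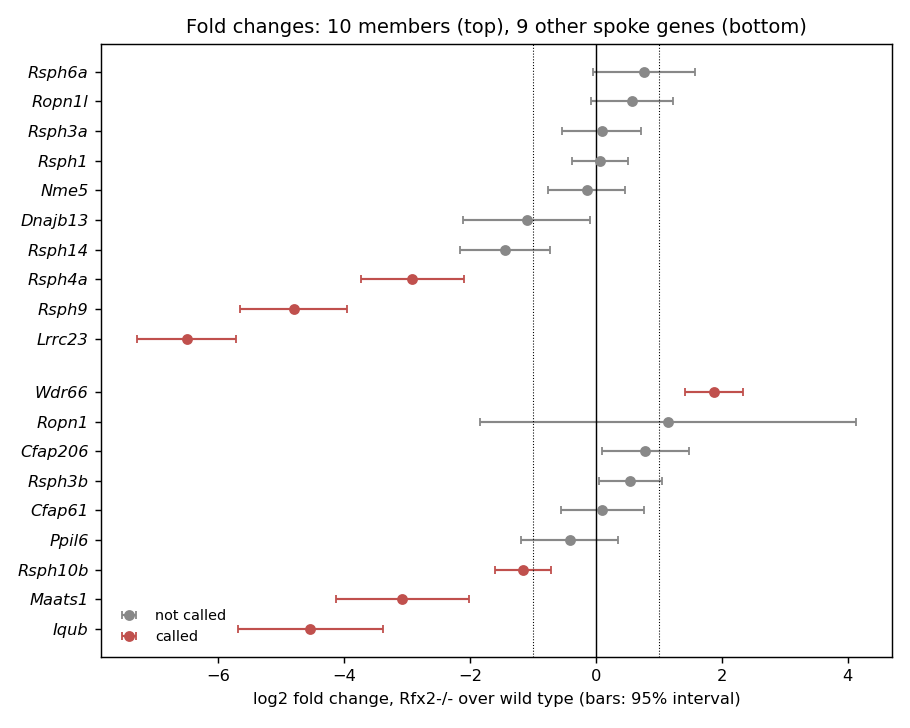
Log2 fold change of Rfx2-/- over WT (x axis) with its 95% interval for the 10 members (upper block) and 9 further spoke genes (lower block). Red points were called, grey points were not, and dotted lines mark a 2-fold change. Lrrc23 at -6.50 and Rsph9 at -4.80 stand farthest to the left among the members, and only Wdr66, at 1.87, was called higher.

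Rsph1 (ENSMUSG00000024033) lies on the minus strand of GRCm38 at chr17:31255019-31277383 and encodes a head protein with MORN repeats. Its level was 1282, 1231, 669, 1361 and 635 CPM in WT mice 1 to 5. In Rfx2-/- mice the lowest value was 999 CPM, the median 1085 and the highest 1146. WT mice 3 and 5 lay below all Rfx2-/- mice and the other WT mice above them, so the genotypes overlapped. It gave a log2 fold change of 0.07 (standard error 0.20, 95% interval -0.38 to 0.51, edgeR adjusted p = 0.815). Rsph1 was the most abundant member per kilobase of exon in both genotypes.

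Rsph4a and Rsph6a encode related head proteins, the first known from motile cilia of multiciliated cells and the second from sperm. Rsph4a (ENSMUSG00000039552, chr10:33905111-33916021, plus strand) had few counts in every library. The WT mice had 25, 18, 14, 26 and 11 counts, and the Rfx2-/- mice had 1 to 3 counts each, at or under the floor. Pooled over mice, 94 counts in WT stood against 11 in Rfx2-/-, a ratio of 7.75 after scaling (exact 95% interval 4.14 to 16.1, which covers counting error only). In CPM this was 0.628 ± 0.263 (SD, n = 5) against 0.0780 ± 0.0289 (SD, n = 6). The fitted log2 fold change of -2.92, which the plot of fold changes shows as called, rests on few reads. No support is drawn from its test. DESeq2 gave no adjusted p for this gene, and with a mean count of at least 50 it was not tested.

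Rsph6a (ENSMUSG00000040866, chr7:19054690-19074447, plus strand) was counted at 245, 169, 68.8, 170 and 44.8 CPM in WT mice 1 to 5. Its lowest level in Rfx2-/- mice was 200.1 CPM, the median 233 and the highest 297. All Rfx2-/- mice exceeded 4 of the 5 WT mice, and WT mouse 1 lay within their range. The log2 fold change of 0.76 (standard error 0.37, 95% interval -0.05 to 1.57) was not called (edgeR adjusted p = 0.138). Per kilobase of exon, Rsph6a exceeded Rsph4a 201-fold to 434-fold in the WT mice.

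Rsph9 (ENSMUSG00000023966, chr17:46122035-46144216, minus strand) encodes a small head protein whose loss in people causes ciliary dyskinesia. It was counted at 81.0, 66.1, 22.1, 60.5 and 24.7 CPM in WT mice 1 to 5. Among Rfx2-/- mice the lowest level was 1.26 CPM, the median 1.86 and the highest 2.59. The gap between the genotypes was wide, since the lowest WT mouse stood at 22.1 CPM. Rsph9 fell 27.9-fold (log2 fold change -4.80, standard error 0.39, edgeR adjusted p = 4.61e-05). It shares chromosome 17 with Rfx2, Rsph1 and Rsph3a. A mitochondrial ribosomal gene on the other strand, Mrps18a, overlaps its span without sharing exon bases and was not called (36.7 ± 5.05 CPM in WT, n = 5, and 43.9 ± 3.01 CPM in Rfx2-/-, n = 6).

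Lrrc23 (ENSMUSG00000030125, chr6:124769863-124779727, minus strand) encodes a leucine-rich repeat protein of the head of the third spoke, needed for sperm motility. WT mice 1 to 5 had 189, 159, 62.7, 153 and 63.8 CPM. The Rfx2-/- mice ranged from 1.11 to 1.74 CPM with a median of 1.32. They were close to each other, with a coefficient of variation of 15.8%, and held 25 to 40 counts each, well above the floor. The fall was 90.5-fold (log2 fold change -6.50, standard error 0.36, edgeR adjusted p = 6.99e-06). What remained in Rfx2-/- testis was 1.11% of the WT level.

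**Figure D2:**
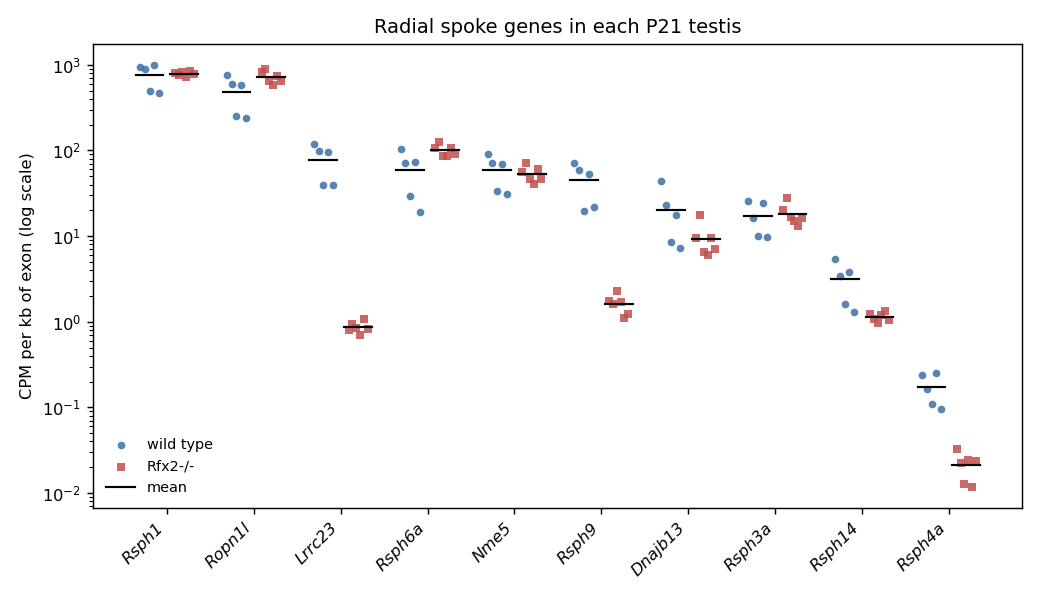
Level of each member in CPM per kilobase of exon on a log axis, 1 point per mouse (circles, WT, n = 5; squares, Rfx2-/-, n = 6), with group means as black lines. Lrrc23, Rsph9 and Rsph4a show separate groups, while Rsph1, Ropn1l, Nme5 and Rsph3a overlap, and WT mice fall into a higher and a lower set for most genes.

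Neither gene of the spoke neck was called. Nme5 (ENSMUSG00000035984, chr18:34562634-34579115, minus strand) encodes a nucleoside diphosphate kinase family protein. Its WT levels were 76.9, 59.7, 27.97, 58.3 and 25.9 CPM. In Rfx2-/- mice they ran from 33.7 to 59.6 CPM with a median of 42.9, inside the WT range. Its log2 fold change was -0.15 (standard error 0.28, 95% interval -0.77 to 0.47, edgeR adjusted p = 0.686).

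Dnajb13 (ENSMUSG00000030708, chr7:100501716-100514960, minus strand) encodes an HSP40 family protein that helps hold spoke parts together. WT mice 1 to 5 had 114, 60.5, 22.1, 45.7 and 18.7 CPM, the widest spread of any member, with a coefficient of variation of 73.8%. The lowest Rfx2-/- mouse had 15.5 CPM, the median was 21.3 and the highest, mouse 7, had 45.8. WT mice 1 and 2 exceeded all Rfx2-/- mice and 3 Rfx2-/- mice lay below all WT mice, but the groups overlapped. The log2 fold change of -1.10 (standard error 0.46, 95% interval -2.12 to -0.09) was not called (edgeR adjusted p = 0.0981). It was -0.60 without WT mouse 1. With the round spermatid marker score as a covariate Dnajb13 was called lower (log2 fold change -1.34, edgeR adjusted p = 0.000316). The gene shares 305 exon bases with Ucp2 on the other strand, the authors left out reads on exons of both genes, and Ucp2 itself was not called (log2 fold change -0.41, edgeR adjusted p = 0.0427).

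Among the stalk genes, Rsph3a (ENSMUSG00000073471, chr17:7945614-7979824, plus strand) encodes a stalk protein that anchors protein kinase A. It was counted at 56.7, 36.5, 22.6, 54.1 and 21.8 CPM in WT mice and at 29.6 to 61.5 CPM, median 37.0, in Rfx2-/- mice, so the groups overlapped. The log2 fold change was 0.09 (standard error 0.29, 95% interval -0.54 to 0.72, edgeR adjusted p = 0.826). This value is uncertain, because the gene has a near copy. Of the 50-nucleotide windows of its exons, 78.2% also occur in exons of other annotated genes, nearly all of them in Rsph3b, and the authors discarded reads with more than 1 position.

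Ropn1l (ENSMUSG00000022236, chr15:31441211-31453737, minus strand) encodes a stalk protein related to ropporin, which binds kinase anchoring proteins. Its WT levels were 734, 570, 243, 549 and 227 CPM. In Rfx2-/- mice the lowest was 553 CPM, the median 667 and the highest 845. WT mice 3 and 5 stood far below the rest, WT mouse 4 just below the Rfx2-/- range and WT mice 1 and 2 within it. The log2 fold change of 0.57 (standard error 0.29, 95% interval -0.08 to 1.22) was not called (edgeR adjusted p = 0.158).

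Rsph14 (ENSMUSG00000009070, chr10:74957477-75032586, minus strand) encodes an armadillo repeat protein of the spoke. WT mice 1 to 5 had 13.5, 8.44, 4.03, 9.50 and 3.21 CPM. The Rfx2-/- mice lay between 2.404 and 3.30 CPM with a median of 2.83. The groups overlapped by a narrow margin, because WT mouse 5 at 3.21 CPM lay below Rfx2-/- mouse 10. The log2 fold change was -1.44 (standard error 0.33, 95% interval -2.16 to -0.73), and at an edgeR adjusted p of 0.0216 the gene missed the threshold. Rsph14 was called lower without WT mouse 5 (log2 fold change -1.63, edgeR adjusted p = 0.00627), with total counts as library sizes, with DESeq2, with limma voom and with the round spermatid covariate. The gene Gnaz, a G protein subunit, lies within the span of Rsph14 on the other strand, shares no exon bases with it, and was higher in Rfx2-/- mice (8.48 ± 2.15 CPM in WT, n = 5, and 87.0 ± 5.53 CPM in Rfx2-/-, n = 6, log2 fold change 3.36, edgeR adjusted p = 1.91e-06).

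A further 9 spoke genes were read from the same fit. Rsph10b, Iqub and Maats1 were lower, Wdr66 was higher and 5 were not called. Their median was 0.10 on the log2 scale. Of all tested genes 1.04% were lower and 0.216% were higher. Maats1, Wdr66 and Cfap61 encode the 3 subunits of the calmodulin and spoke associated complex at the base of the spokes, and each of them gave a different answer.

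Maats1 (Cfap91, ENSMUSG00000022805) was counted at 62.0, 44.4, 16.1, 35.4 and 14.2 CPM in WT mice. Its levels in Rfx2-/- mice were 1.91 to 7.80 CPM with a median of 3.52, below every WT mouse. It fell 8.43-fold (log2 fold change -3.08, standard error 0.48, edgeR adjusted p = 0.00340). The call was lost, at adjusted p values up to 0.0129, without WT mouse 2 or without Rfx2-/- mouse 8, 10 or 11. Wdr66 (Cfap251, ENSMUSG00000029442) moved the other way, from 168, 137, 93.0, 148 and 67.1 CPM in WT mice to 411 to 475 CPM, median 454, in Rfx2-/- mice. Every Rfx2-/- mouse exceeded every WT mouse, as for 6.5% of all tested genes. Wdr66 rose 3.66-fold (log2 fold change 1.87, standard error 0.21, edgeR adjusted p = 0.000377), and this call was kept with each mouse left out in turn. Cfap61 (ENSMUSG00000037143), the third subunit, differed little (44.7 ± 20.9 CPM in WT, n = 5, and 48.0 ± 11.3 CPM in Rfx2-/-, n = 6, log2 fold change 0.10, 95% interval -0.56 to 0.76).

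Iqub (ENSMUSG00000046192), which holds the first spoke on the doublet, was counted at 154, 108, 35.8, 84.98 and 28.8 CPM in WT mice. The Rfx2-/- mice had 1.87 to 7.35 CPM with a median of 2.98, all below WT. It fell 23.3-fold (log2 fold change -4.54, standard error 0.52, edgeR adjusted p = 0.000442). Rsph10b (ENSMUSG00000075569), a head gene with MORN repeats, had 53.9, 42.5, 27.9, 36.2 and 21.4 CPM in WT mice and 14.5 to 19.5 CPM, median 16.01, in Rfx2-/- mice. The groups did not overlap and the fall was 2.23-fold (log2 fold change -1.16, standard error 0.20, edgeR adjusted p = 0.00653). By its adjusted p this call was lost in 8 of the 11 fits that left out 1 mouse, at values up to 0.0212. Without WT mouse 1 it was lost by size, as the log2 fold change of -0.973 was under 2-fold. It was kept without WT mouse 3 or 5. Of its exon windows 10.6% occur in exons of other annotated genes, mostly of an overlapping gene on the same strand.

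Among the 5 that were not called, Cfap206, which docks the second spoke, had 401 ± 202 CPM in WT (n = 5) and 691 ± 126 CPM in Rfx2-/- (n = 6), with an edgeR adjusted p of 0.0911. Rsph3b had 17.1 ± 6.21 and 25.0 ± 4.08 CPM, and Ppil6 had 10.04 ± 5.66 and 7.496 ± 2.89 CPM in the same order. The values of Rsph3b are uncertain, because 77.7% of its exon windows also occur in other genes, mostly in Rsph3a. Ropn1, the paralogue of Ropn1l, varied more than any other spoke gene. It ranged from 0.0314 CPM, a single count, to 69.8 CPM in WT and from 3.61 to 120 CPM in Rfx2-/- mice, so that its 95% interval ran from -1.85 to 4.14.

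Across all members, the WT mice differed from each other more than the Rfx2-/- mice did. The coefficient of variation was larger in WT for 10 of 10 members, and WT mice 3 and 5 were the lowest 2 WT mice for 10 of 10. The same 2 mice were lowest for each of the other spoke genes. How many of all tested genes show either pattern was not counted, so neither is a trait of the members. For Rsph4a the variation in Rfx2-/- mice rests on 1 to 3 counts per library. WT mouse 1 was the highest for 8 members and WT mouse 4 for the other 2. The summed CPM of 8 pachytene spermatocyte markers moved with the members, at 7115, 6281, 3260, 6250 and 3154 in WT mice 1 to 5. In Rfx2-/- mice this sum lay between 6423 and 8332, with a median of 7365, and 8 of 8 markers had fold changes above 0, none of them called. Marker sums passed at an adjusted p of at most 0.05. The difference between the genotypes did not pass (two-sided exact permutation test, p = 0.0173, adjusted over 9 marker lists 0.117, smallest p possible 0.00216). It passed without WT mouse 1, at an adjusted p of 0.0214 in the same permutation test.

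Sums of 5 spermatogonial and 6 Sertoli cell markers ran the other way among WT mice. WT mice 3 and 5 had the highest spermatogonial sums, at 416 and 469 CPM, beside 233 to 327 CPM in the other WT mice and 225 to 328 CPM in Rfx2-/- mice. The Sertoli sum was 2994 and 3388 CPM in WT mice 3 and 5, 2246 to 2746 CPM in the other WT mice and 2196 to 2595 CPM in Rfx2-/- mice. Round spermatid markers, 13 in all, summed to 10.3 to 608 CPM in WT and 35.003 to 772 CPM in Rfx2-/- mice, with the highest values in WT mouse 1 and Rfx2-/- mouse 7. None of the markers in these 4 lists was at or under 3 counts in every library. The part of these differences in cell makeup in the values of Rsph6a, Ropn1l, Rsph14 and Dnajb13 was not tested beyond the covariate fit. That fit used a score of round spermatid markers as its covariate. The part of the pachytene, Sertoli and spermatogonial differences was not tested. Lrrc23 and Rsph9 were called lower with that covariate too, and without WT mice 3 and 5.

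**Figure D3:**
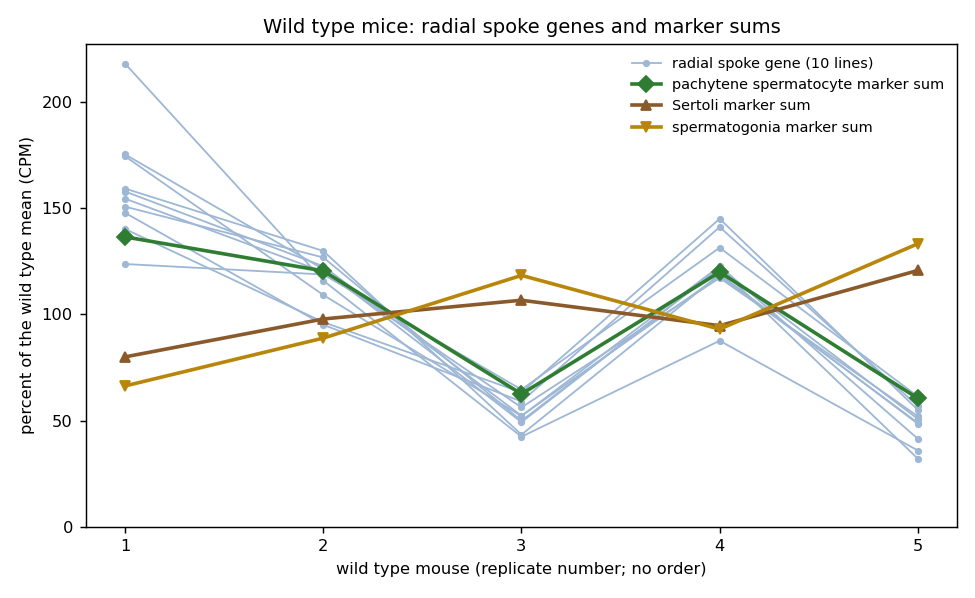
Each member in the 5 WT mice as a percentage of its own WT mean in CPM (thin lines, 10 genes), with the summed CPM of pachytene, Sertoli and spermatogonial markers on the same scale. Mice 3 and 5 are low for the members and for the pachytene sum and high for the Sertoli and spermatogonial sums. The order of mice on the x axis has no meaning.

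Markers of multiciliated epithelium, as found in the efferent ducts beside the testis, were summed as well. Of 8 such markers 5 were tested, and Mcidas, Gmnc and Slc9a3 had at most 13 counts in any library. The sum of all 8 was 17.7 to 196 CPM in WT and 28.6 to 171 CPM in Rfx2-/- mice (two-sided exact permutation test, p = 0.870). Foxj1, at 141 to 2258 counts in WT and 352 to 1862 in Rfx2-/- mice, is also a gene of spermatids. Together with Deup1, at 220 to 2738 and 102 to 2096 counts, it held most counts of the sum. Pax2 had 28 to 150 counts in WT and 10 to 31 in Rfx2-/- mice, and Pax8 had 27 to 194 and 9 to 35. Of the 5 tested markers 3 had fold changes below 0 and 2 above, none of them called. The sum therefore does not show that these cells were equal in both genotypes. The part of such cells in the members' values was not tested. The remaining sums, of early meiotic, Leydig cell, macrophage and germ line markers, did not pass either, with adjusted p from 0.117 to 0.498 in the same permutation tests.

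Relating each member to Rsph1 in the same mouse narrowed the range among WT mice for each of the other 9 members. Lrrc23, for instance, varied 3.02-fold among WT mice as a level and 1.58-fold as a share of Rsph1, both per kilobase. On this scale Lrrc23 was 8.002% to 12.6% of Rsph1 in WT and 0.0950% to 0.130% in Rfx2-/- mice. Rsph9 was 3.99% to 7.65% of Rsph1 in WT and 0.133% to 0.277% in Rfx2-/- mice. Rsph14, which overlapped as a level, did not overlap as a share of Rsph1, at 0.279% to 0.583% in WT and 0.118% to 0.165% in Rfx2-/- mice. These 3 members lay below WT in every Rfx2-/- mouse on this scale, as did 2.35% of all tested genes. Rsph4a did so too, with 1 to 3 counts in each Rfx2-/- library. The shares of Rsph3a, Rsph6a, Nme5, Dnajb13 and Ropn1l overlapped. Ropn1l made up 51.3% to 82.1% of Rsph1 in WT and 79.1% to 115% in Rfx2-/- mice.

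**Figure D4:**
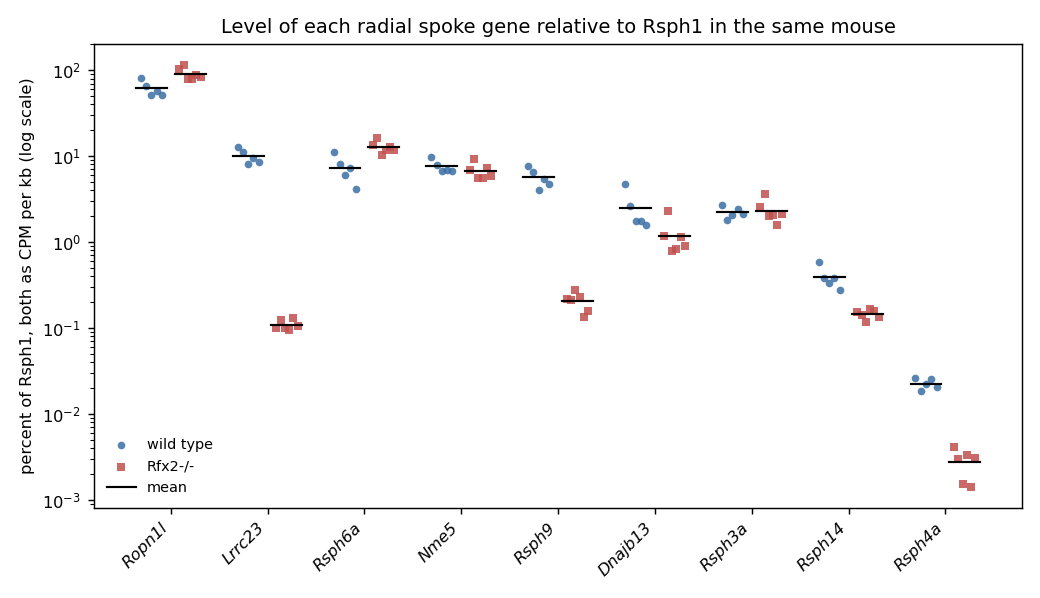
Each of the other 9 members as a percentage of Rsph1 in the same mouse, both in CPM per kilobase of exon, on a log axis (circles, WT, n = 5; squares, Rfx2-/-, n = 6; lines, means). Lrrc23, Rsph9, Rsph14 and Rsph4a have separate groups.

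The order of levels per kilobase of exon differed between the genotypes in the places of Lrrc23 and Rsph9. The means of Dnajb13 and Rsph3a also changed order, but among single WT mice Dnajb13 was the higher in only 2 of 5. In WT testis Rsph1 led with 755 ± 257 CPM per kilobase, followed by Ropn1l (486 ± 231), Lrrc23 (78.2 ± 36.5), Rsph6a (59.3 ± 34.8), Nme5 (59.0 ± 26.2), Rsph9 (44.9 ± 23.1), Dnajb13 (20.1 ± 14.8), Rsph3a (17.2 ± 7.47), Rsph14 (3.12 ± 1.70) and Rsph4a (0.172 ± 0.0721; SD, n = 5 each). Each gene exceeded the next in 5 of 5 mice with 2 exceptions. Rsph6a exceeded Nme5 in 3 of 5 mice and Dnajb13 exceeded Rsph3a in 2 of 5, so these neighbours did not differ beyond their spread. In Rfx2-/- testis Lrrc23 stood next to last, at 0.862 ± 0.136 CPM per kilobase (SD, n = 6), above only Rsph4a. Rsph9 had dropped to 1.61 ± 0.417 CPM per kilobase, above Rsph14 (1.15 ± 0.134) in 5 of 6 mice. Rsph3a (18.3 ± 5.14) exceeded Dnajb13 (9.36 ± 4.35) in 6 of 6 mice. The place of Rsph3a is uncertain in both genotypes. Of its exon windows 78.2% also occur in other genes, and reads with more than 1 position were discarded. Rsph1 (790 ± 39.7) exceeded Ropn1l (721 ± 116) in 4 of 6 mice.

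The genes most like Lrrc23 over the 11 mice, by Pearson correlation of log2 CPM, were 1700017D01Rik, Spef2, Drc1, Ankmy1 and Ccdc42, with r from 0.995 to 0.997. For Rsph9 they were Tsga10ip, Chgb, A630010A05Rik, Cacna1i and Il33, with r from 0.992 to 0.994. All 10 genes were called lower in Rfx2-/- mice, so the 11 points of each correlation fall into 2 groups by genotype.

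Beside the spokes, 2 neighbouring structures of the axoneme were counted the same way. Of 11 central pair genes 3 were lower (Spef2, Cfap46 and Cfap70), none was higher, and the median log2 fold change was 0.19. Of 12 genes of the nexin-dynein regulatory complex and the axonemal rulers 3 were lower (Drc1, Drc7 and Ccdc40), none was higher, and the median was -0.20. In each structure some genes fell steeply while others, such as Hydin (171 ± 72.0 CPM in WT, n = 5, and 195 ± 23.9 CPM in Rfx2-/-, n = 6) and Drc3 (113 ± 37.6 and 109 ± 10.1 CPM), did not. Over all tested genes the shares were 1.04% lower and 0.216% higher. No test of a difference between the structures was made.

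**Figure D5:**
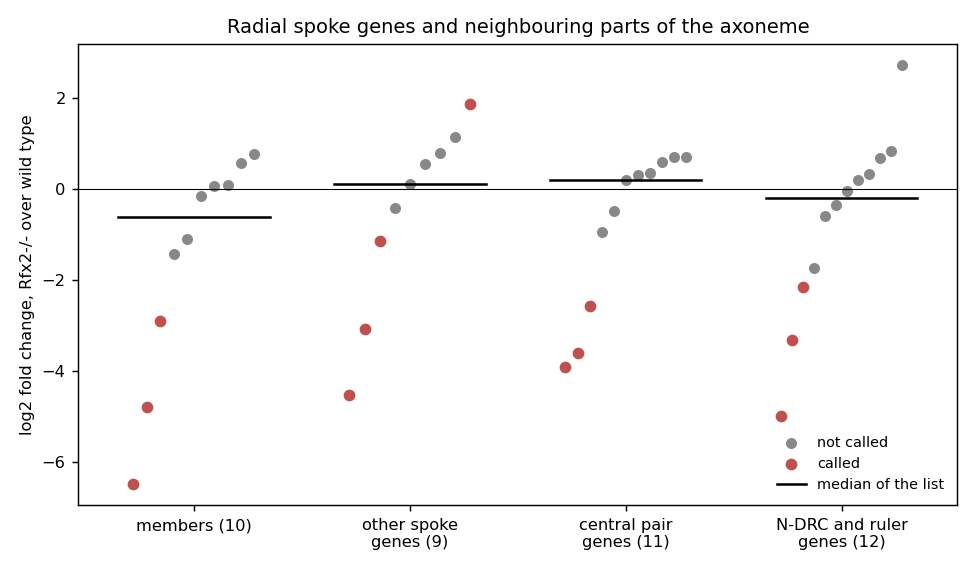
Log2 fold changes of Rfx2-/- over WT for the genes of 4 axonemal lists, 1 point per gene, ordered within a list (red, called; grey, not called; black line, median of the list). The 3 called members, Rsph4a included, lie between -6.50 and -2.92, and each of the other lists also holds 3 genes that were called lower.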

How the data were processed

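Testis RNA of 5 WT and 6 Rfx2-/- mice was analysed at postnatal day 21. ChIP-Seq reads and mice of other ages were not used here. The authors deposited raw counts per gene and mouse, without normalization. According to their notes, which name CASAVA 1.8.2, STAR 2.4 and featureCounts 1.4.6, single reads from TruSeq libraries were placed on GRCm38, reads with several positions were dropped, and the rest were counted on merged exons of protein coding isoforms. One paragraph of their methods names another aligner, and whether counting used strand is not given in the sources used here.

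The members and all gene lists were chosen with earlier results of these data known. Named genes are the members, 9 other spoke genes, Rfx2, the 5 genes most like Lrrc23 and the 5 most like Rsph9. Overlapping genes and the examples from other axonemal lists were picked after their values were seen. GENCODE M21 gave symbols for 22293 of 23074 identifiers. Counts were filtered with filterByExpr and tested in R 4.3.3 with edgeR 4.0.16 (TMM, glmQLFit, glmQLFTest), without covariates, and adjusted by Benjamini-Hochberg over 15745 genes. Log2 CPM used a prior count of 2. Marker sums were compared by two-sided exact permutation tests, with a limit of 0.05 on the adjusted p. Total counts per mouse differed between genotypes (same test, exact p = 0.0130). The labels describe separate mice. Alternatives were DESeq2 1.42.0, limma 3.58.1 voom with sample weights, other scalings, filters and thresholds, a round spermatid covariate, and each mouse left out. Leaving out WT mice 3 and 5 together, or WT mouse 1 with Rfx2-/- mouse 7, was added after seeing the data. The tests were tried on simulated counts. Promoter sequences are RefSeq's.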

Additional observations from a re-analysis of the deposited data

Results flagged for a closer look

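Of 56 groups of values checked for a single mouse far from the others, 4 stood out, and chance alone marks about 1 group in 20. In Rfx2-/- mice, mouse 7 was far above the others for Dnajb13, at 45.8 CPM beside 24.8 CPM in the next mouse and 15.5 CPM in the lowest. The same mouse was highest for Iqub, at 7.35 CPM beside 3.87 CPM in the next. In WT mice, mouse 1 had 69.8 CPM of Ropn1 beside 20.1 CPM in the next mouse. WT mouse 1 also had the highest round spermatid marker sum, 608 CPM beside 152 CPM in the next. Rfx2-/- mouse 7 had the highest such sum of its genotype, 772 CPM. Without WT mouse 1 and Rfx2-/- mouse 7 together, none of the spoke genes changed its side of the threshold.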

How the results depend on the processing

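No paired analysis was possible because the labels name no litter and the genotypes share no replicate number. By its methods, the study used littermates of the same age where it could, so some mice may share a litter. Lrrc23 and Rsph9 were called lower, and Wdr66 higher, under each alternative run. DESeq2 and a mean count of at least 50 gave no adjusted p for Rsph4a, and as it passed the filter through WT libraries only, its other calls say nothing of stability. With the round spermatid score as covariate 5 members were lower in place of 3, Rsph4a counted in both, as Rsph14 (-1.53) and Dnajb13 (-1.34) passed. Rsph14 was also called with total counts as library sizes (-1.55), DESeq2 (-1.42), limma voom (-1.53), and without WT mice 3 and 5 together (-1.87). Leaving out each mouse in turn moved its log2 fold change from -1.63 to -1.14.

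Members close to 0 changed direction and were never called. Rsph1 stood at -0.063 with total counts, -0.13 with limma voom, -0.24 without WT mice 3 and 5, and -0.055 to 0.18 with each mouse left out. Rsph3a stood at -0.042, -0.11 and -0.26 in the same order, -0.076 with the covariate, and -0.068 to 0.27 with each mouse left out. Cfap61 likewise stood at -0.025, -0.12, -0.28, -0.079 and -0.070 to 0.33. Nme5 ranged from -0.30 to 0.060 with each mouse left out. Total counts move the median of all genes from -0.05 to -0.22.

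Over all genes, 315 were lower and 100 higher with the covariate, 274 and 102 at an unadjusted p of 0.01, and 265 and 90 at an adjusted p of 0.05, against 163 and 34. DESeq2 called 108 higher, limma voom 52, the fit without WT mice 3 and 5 called 21, and leaving out each mouse 20 (WT mouse 3) to 66 (WT mouse 1). In the nexin-dynein and ruler list 1 gene was called higher with DESeq2, limma voom, the covariate and either looser threshold, and 0 to 1 with each mouse left out. Lower calls among the other spoke genes ran from 1 to 3 with each mouse left out. The 1 came without WT mouse 2 or without Rfx2-/- mouse 8, 10 or 11. The cause of these changes was not tested.

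As log2 of Rfx2-/- over WT, the multiciliated marker sum turned to -0.14 on the mean log2 scale. With each mouse left out, marker sums ranged from -0.24 to 0.89 (multiciliated), -0.19 to 2.24 (round spermatid), 0.36 to 0.64 (pachytene), -0.50 to -0.26 (spermatogonia), -0.29 to -0.14 (Sertoli), -0.64 to -0.42 (macrophage) and 0.14 to 0.25 (germ line). The exact permutation tests passed at adjusted p of 0.0214 for the pachytene and Sertoli sums and 0.0429 for the spermatogonial sum without WT mouse 1, and at 0.0214 for the macrophage and germ line sums without WT mouse 4. The round spermatid sum turned negative without Rfx2-/- mouse 7. Depth limits Rsph4a most, with 1 to 3 counts in each Rfx2-/- library.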
